A study of Mus musculus with 12 samples.

Results

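H7 is a clone of the mouse fibroblast line NIH3T3 in which Aebp1 was knocked out, and it was compared here with the uncloned line it came from, across all expressed genes. The H7 libraries were chosen by the clone named in their labels: 3 libraries, at passages 7, 8 and 9, of genotype AEBP1 KO. They were set against the 3 libraries of the parental line, at passages 6, 7 and 8, of genotype WT, so 6 of the 12 libraries of the series carry the comparison. The other 6 libraries come from the knockout clones F5 and G5, also AEBP1 KO and also at passages 7, 8 and 9, and are used below only to show where H7 differs from them. NIH3T3 is an immortalised line from mouse embryos, and per the labels all cells were kept in serum-supplemented DMEM/F12. H7 is 1 clone. Cloning and the loss of Aebp1 are together in every knockout library and in no parental library, so their parts in a difference cannot be told apart. A bulk library cannot tell fewer cells of a type from less RNA per cell. The labels do not say how or where the gene was edited, nor that passages are separate cultures, so the p-values below measure only the spread between these libraries.

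AEBP1 exists in a secreted form, also called ACLP, that binds collagen fibrils through a discoidin domain and carries a carboxypeptidase-like domain without activity. A shorter nuclear form has been described as a transcriptional repressor in fat-cell precursors. The secreted form is abundant in connective tissue, in which people who lack it have a form of Ehlers-Danlos syndrome, and the title of the series places the gene in the fibroblasts of tumours. Genes named below beyond those the naming rule gave were chosen after their values were seen.

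The H7 libraries held 25502506 to 27840035 counts and the parental libraries 22441848 to 24965930. Levels are given as counts per 1000000 counts (CPM) after TMM scaling. Fibroblast markers summed to 24400 to 27900 CPM in the H7 libraries and to 25400 to 29800 CPM in the parental libraries, and of 12 markers tested 1 was higher in H7 and 1 lower. Markers of other cell types were low, apart from those of neural and glial cells and of cartilage and bone. Epithelial markers summed to 1.33 to 2.07 CPM in H7 and 0.631 to 1.23 CPM in the parental line, endothelial markers to 0.883 to 1.57 and 0.434 to 0.626, immune markers to 6.33 to 7.23 and 4.87 to 6.63, skeletal muscle markers to 2.15 to 2.32 and 0.536 to 1.07, and fat-cell markers to 0.159 to 0.368 and 0 to 0.237. Epcam, Kdr, Itgam, Myod1 and Lep were at 0 in all 6 libraries. Neural and glial markers summed to 39.6 to 64.4 CPM in H7 and 13.4 to 20.6 CPM in the parental line, most of it Map2, with Sox10 at 0. Cartilage and bone markers summed to 137 to 236 and 152 to 292 CPM. Called higher in H7 were 1 of 2 epithelial, 2 of 3 skeletal muscle and 2 of 4 neural and glial markers tested. Of 3 cartilage and bone markers tested 1 was lower. In a multidimensional scaling of the libraries the first dimension (37.7% of the variance) set the H7 libraries against all others. Along the second (27.0%) the parental library of passage 7 lay farther out than the other parental libraries. It is second in the order of parental passages. The second library of each clone, passage 8, was also the lowest of its clone there (H7 0.319, against 0.78 and 0.422). Deviations of parental passage 7 and H7 passage 8 from their group means correlated at 0.38. Leaving out only the parental library keeps its H7 counterpart in. Leaving out parental passage 7 ended some calls given below or moved fold changes given for called genes by over 1.5 times. In those places the value without it, or the range that holds it, is given.

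Aebp1 itself (ENSMUSG00000020473, chromosome 11, positions 5861947 to 5872088 on the plus strand of GRCm38) was counted at 158, 131 and 153 CPM in the H7 libraries, against 613, 466 and 579 CPM in the parental libraries. The groups did not overlap, and every H7 library was below every parental one. The mean was 147 ± 14.4 CPM in H7 and 553 ± 76.5 CPM in the parental line (SD, n = 3 each). The log2 fold change was -1.91 ± 0.12 (SE), with an adjusted p of 3.27e-06 in edgeR's quasi-likelihood test. Transcript of the gene was thus still present in the knockout clone, and these data do not show whether any protein is made. The level in H7 lay between those of G5 and F5, at 128 and 193 CPM. Aebp1 has relatives among the carboxypeptidases. Cpe had 190, 149 and 172 CPM in H7 and 233, 104 and 198 CPM in the parental line (log2 fold change -0.07, adjusted p = 0.886), Cpd differed by 0.02 (adjusted p = 0.84), and Cpxm1 by -0.81 at under 1 CPM (adjusted p = 0.0933).

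Of 14704 genes tested, 1418 were higher in H7 than in the parental line (9.64%) and 1459 were lower (9.92%), 19.6% in all, at an adjusted p under 0.05. Every count of list members below is to be read beside these shares. Counts against the mean of F5 and G5 are to be read beside 11.6% higher and 11.6% lower. The median size of these changes was 0.59 on the log2 scale, and the median of all genes tested was -0.02. At least 2-fold changes were seen in 342 higher and 461 lower genes, and at least 4-fold changes in 136 higher and 230 lower genes. The 3 H7 values lay wholly above or below the 3 parental values in 2847 of the genes called and in 5013 of all genes tested (34.1%). The counts depend on the libraries used and on the model. Without the H7 library of passage 7 there were 916 higher and 907 lower genes, and with only the H7 and parental libraries in the fit 840 and 721. With a block for the order of passages there were 2350 higher and 2458 lower genes.

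**Figure D1:**
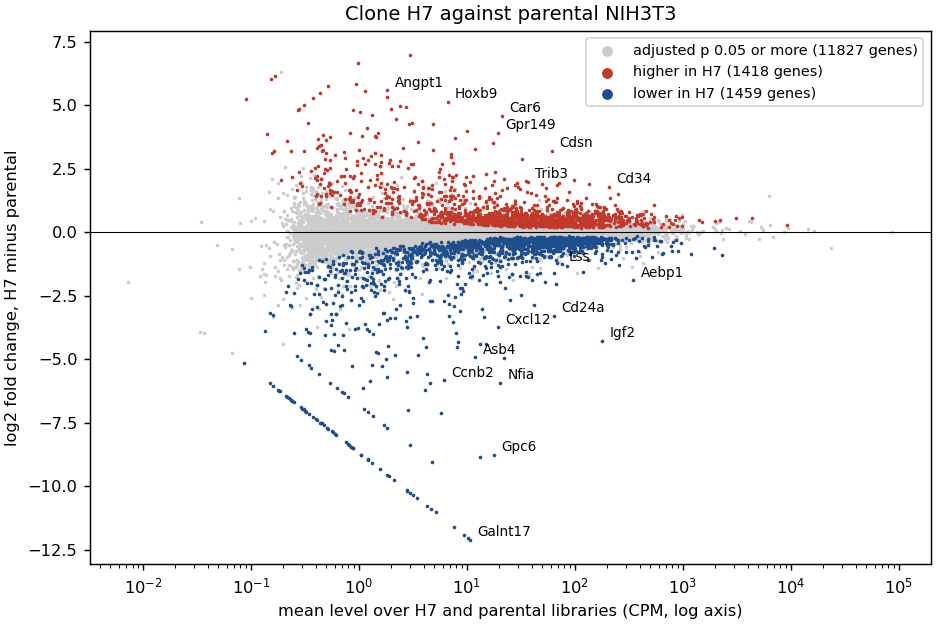
Log2 fold change of H7 over the parental line (vertical axis) against the mean level of the gene over both groups (horizontal log axis, CPM), 1 point per gene tested. Red points are the 1418 genes higher in H7 and blue points the 1459 lower ones; the line of blue points at the lower left holds genes with 0 counts in H7, whose fitted value depends on the prior count.

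Among genes of at least 10 CPM in H7, the largest rise was that of Hoxb9, a homeobox transcription factor of posterior body regions. It had 14.3, 11.8 and 12.8 CPM in the H7 libraries, against 0.536, 0.355 and 0.22 CPM in the parental libraries, a log2 fold change of 5.12 ± 0.28 (adjusted p = 1.5e-06). All 3 H7 libraries were far above all parental ones. Car6, a secreted carbonic anhydrase known from saliva, had 46.3, 44 and 30.6 CPM in H7 and 2.33, 1.77 and 0.966 CPM in the parental line (4.57, adjusted p = 0.000251). Gpr149, an orphan receptor, had 49.8, 23.7 and 36.4 CPM in H7 and 3.49, 0.671 and 3.25 CPM in the parental line (3.9, adjusted p = 0.00042). The H7 values of Gpr149 varied more than those of Hoxb9, and the groups stayed apart for both genes. Further large rises, as log2 fold changes, were Stbd1 (3.71), which tethers glycogen to membranes, Anxa8 (3.52), an annexin, Avil (3.28), an actin-binding protein of the villin family, Cdsn (3.2), an adhesion protein of cornified epidermis, Sh2d6 (3.06), Slc16a11 (2.96), Sod3 (2.89), the extracellular superoxide dismutase, Fibin (2.71) and Itgb4 (2.66), the integrin chain of hemidesmosomes. Their adjusted p-values ran from 3.5e-05 to 0.0109.

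At levels over 100 CPM the rises were smaller. Slit2, a secreted ligand of Robo receptors, had 313, 427 and 376 CPM in H7 and 78.5, 162 and 151 CPM in the parental line (1.51, adjusted p = 0.00808). Cd34, a sialomucin of progenitor and stromal cells, had 348, 310 and 317 CPM in H7 and 104, 93.5 and 84.6 CPM in the parental line (1.79, adjusted p = 0.000119). H7 was higher in every library for both genes. The water channel gene Aqp1 rose by 1.85, the teneurin gene Tenm4 by 1.9, the adhesion molecule gene Alcam by 1.94 and Ero1l, an oxidase of the endoplasmic reticulum, by 2.05 (adjusted p 0.00045 to 0.0103).

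Several genes that the parental line transcribed had no count in H7. In all, 36 genes with a mean of at least 1 CPM in the parental line had 0 counts in all 3 H7 libraries, and no gene showed the opposite pattern at that level. Galnt17, a member of the family that starts mucin-type sugar chains, had 0 CPM in each H7 library and 22.6, 25.4 and 16.7 CPM in the parental libraries, at least 562-fold lower when 3 counts over the group are taken as the limit of a count of 0. Serpine2, a secreted inhibitor of thrombin and plasminogen activators, had 0 in each H7 library and 14.7, 36.4 and 10.6 CPM in the parental libraries, at least 549-fold lower (at least 327-fold without the parental library of passage 7). Btbd11 had 0 in each H7 library and 13.2, 17.4 and 14.9 CPM in the parental libraries, at least 395-fold lower. All 3 parental libraries expressed each of these genes. Ralgps2, an exchange factor for Ral GTPases, was at least 265-fold lower, and Ddx3y, an RNA helicase of the Y chromosome, at least 486-fold lower. F5 and G5 averaged 0.233 and 0 CPM of Ddx3y, so its loss was shared, whereas Galnt17, Btbd11 and Ralgps2 averaged 9.02 to 23.2 CPM in those clones. In the other direction, the genes at 0 in the parental line with most counts in H7 stayed low: AU021092, Kctd4 and Macc1 averaged under 1 CPM and were at least 14.5-, 12.4- and 10.9-fold higher, and the 44 counts of Gm37167 came from the passage 9 library alone.

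Other genes fell to traces. Gpc6, a glypican that carries heparan sulphate on the cell surface, had 0.159, 0 and 0.0786 CPM in H7 and 23.5, 57.6 and 26.2 CPM in the parental line (-8.77, adjusted p = 4.75e-06). Nfia, a transcription factor of the nuclear factor I family, had 0.836, 0.699 and 0.432 CPM in H7 and 33.8, 58.4 and 28.1 CPM in the parental line (-5.93, adjusted p = 1.5e-06). The complement regulator Cd55 had 0.119, 0.0368 and 0 CPM in H7 and 13.3, 43.9 and 21.5 CPM in the parental line (-8.86, adjusted p = 0.000299). In each case the groups were separated widely, while the parental library of passage 7 was the highest. With so few counts in H7 the fitted sizes move: without parental passage 7 Cd55 differed by -8.27 and Spats2l by -6.21, without H7 passage 7 Cd55 by -10.1 and Gpc6 by -9.7, and without H7 passage 8 Gpc6 by -8.17. Spats2l (-7.14) and Asb4 (-4.93) fell to under 1 CPM. Of genes above 100 CPM in the parental line, Cd24a, a small cell-surface glycoprotein, had 6.37, 16.9 and 12.7 CPM in H7 and 64.1, 195 and 93.4 CPM in the parental line (-3.29, adjusted p = 0.000833). The kinase gene Nuak1, a relative of AMPK, had 26.4, 26.7 and 25.2 CPM in H7 and 107, 98.9 and 119 CPM in the parental line (-2.05, adjusted p = 1.3e-05). The formin gene Daam2 fell by 1.56 and Glis3, a zinc-finger factor, by 1.32 on the log2 scale. Ptn, the growth factor pleiotrophin, fell by 1.3, with an adjusted p of 0.0207 that was 0.0513 without the parental library of passage 7, 0.0845 without H7 passage 7 and 0.0567 without H7 passage 8.

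**Figure D2:**
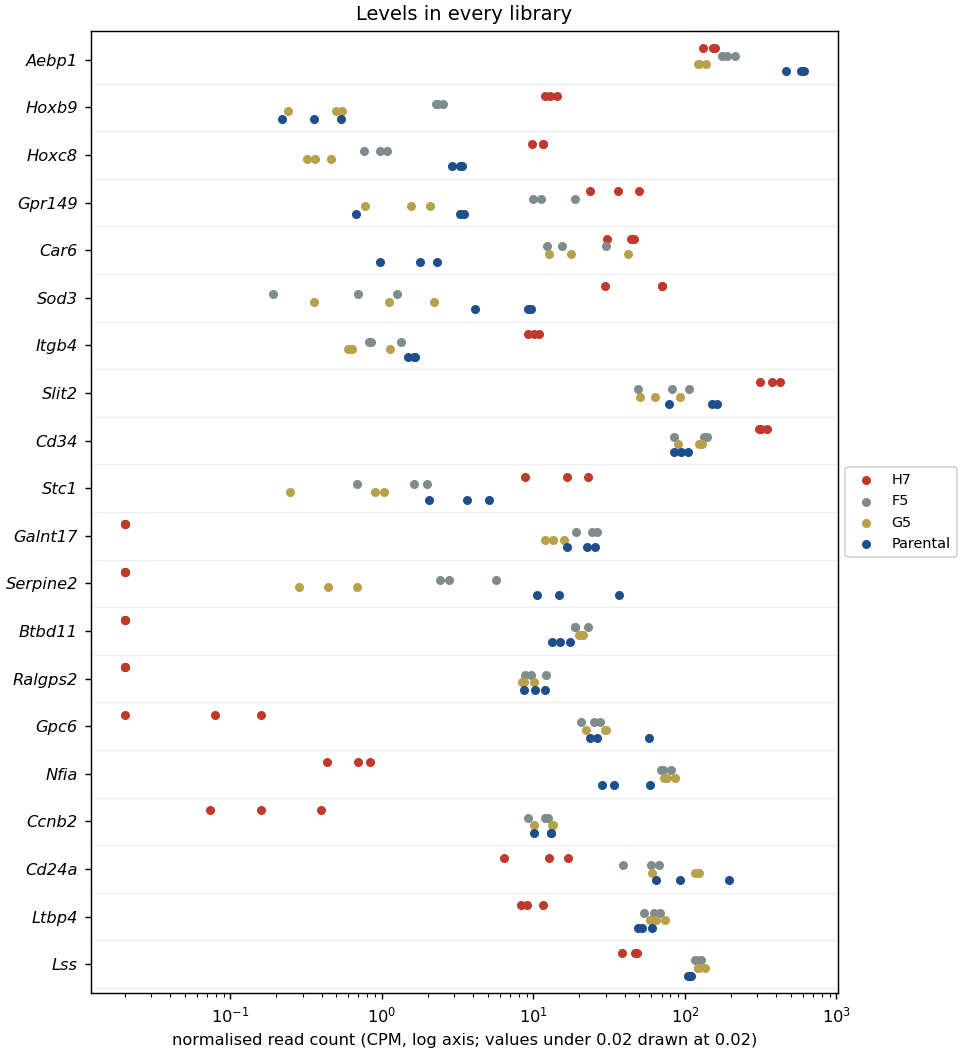
Normalised read count in each library (horizontal log axis, CPM; values under 0.02 CPM are drawn at 0.02) of 20 genes, with H7 in red, F5 in grey, G5 in yellow and the parental line in blue. Aebp1 is low in all 3 clones, and Galnt17, Btbd11 and Ralgps2 are at 0 in H7 and above 8 CPM in every other library.

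The gene list with the largest share of called members was that of the amino acid response. ATF4 is a transcription factor whose translation increases when amino acids run short or the endoplasmic reticulum is stressed, and it switches on genes for amino acid synthesis, amino acid import and tRNA charging. Of 38 such genes tested, 33 were higher in H7 and 0 lower, with a median log2 fold change of 0.76, beside -0.02 for all genes tested. Members outside chromosomes 6, 10, 15, 16 and 18, whose medians shifted, gave 26 higher of 29. Between 26 and 33 members were called without 1 library (in lists with 3 or fewer called members in a direction, that number ran from 0 to 5 without 1 library), and 21 with only the H7 and parental libraries in the fit. Trib3, a pseudokinase that ATF4 induces, had 67.1, 60.8 and 47.6 CPM in H7 and 19.9, 12.2 and 12.4 CPM in the parental line (1.98 ± 0.22, adjusted p = 0.000144). Slc7a11, the cystine importer, had 35.8, 25.1 and 24.6 CPM in H7 and 11, 3.27 and 6.85 CPM in the parental line (2.02, adjusted p = 0.00128). H7 was higher in every library for both. Cth, which makes cysteine, had 33.4, 35.5 and 22.9 CPM in H7 and 8.18, 4.46 and 5.45 CPM in the parental line (2.35, adjusted p = 0.000469). Atf4 itself had 469, 491 and 450 CPM in H7 and 321, 279 and 312 CPM in the parental line (0.63, adjusted p = 0.000413).

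The promoters of 4 of these genes are shown because they carry the letters of the C/EBP-ATF response element, TGATGNAA on either strand, in capitals. The windows run from 250 bases before to 50 after the gene start and are from RefSeq, build GRCm38.p6, each written 5′ to 3′ on the strand of the gene: Trib3 at chr2:152344011-152344310 (minus), Chac1 at chr2:119350992-119351291 (plus), Slc7a11 at chr3:50443564-50443863 (minus) and Asns at chr6:7693160-7693459 (minus).
Trib3: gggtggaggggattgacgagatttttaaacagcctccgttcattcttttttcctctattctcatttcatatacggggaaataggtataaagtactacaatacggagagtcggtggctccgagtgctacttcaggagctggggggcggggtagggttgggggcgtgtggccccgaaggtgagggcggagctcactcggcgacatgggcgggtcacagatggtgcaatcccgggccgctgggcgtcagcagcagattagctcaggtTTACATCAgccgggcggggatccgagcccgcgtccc
Chac1: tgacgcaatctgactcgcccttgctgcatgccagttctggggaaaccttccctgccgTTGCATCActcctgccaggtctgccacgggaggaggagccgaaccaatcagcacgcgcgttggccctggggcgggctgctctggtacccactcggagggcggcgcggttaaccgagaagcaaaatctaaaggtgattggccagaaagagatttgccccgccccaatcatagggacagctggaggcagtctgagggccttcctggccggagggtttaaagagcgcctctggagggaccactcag
Slc7a11: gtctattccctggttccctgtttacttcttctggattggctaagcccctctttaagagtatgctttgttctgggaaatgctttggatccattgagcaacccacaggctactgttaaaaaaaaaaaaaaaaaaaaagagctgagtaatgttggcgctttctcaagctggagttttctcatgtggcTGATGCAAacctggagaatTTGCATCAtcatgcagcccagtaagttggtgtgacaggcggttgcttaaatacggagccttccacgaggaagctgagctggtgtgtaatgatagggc
Asns: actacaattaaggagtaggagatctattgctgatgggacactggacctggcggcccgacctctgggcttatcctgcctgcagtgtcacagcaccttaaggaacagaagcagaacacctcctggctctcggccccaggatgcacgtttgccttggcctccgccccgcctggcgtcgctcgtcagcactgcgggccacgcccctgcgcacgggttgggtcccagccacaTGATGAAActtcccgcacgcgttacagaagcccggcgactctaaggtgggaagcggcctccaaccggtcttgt
These letters were found in 11 of the 27 higher members that had a promoter in the table (40.7%), in 4.51% of all 27025 genes with a promoter there and in 2.68% of the 9925 of them that were tested. The list was drawn from known ATF4 targets, and a match of letters is not a site shown to be bound.

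Chac1, which breaks down glutathione, rose by 1.35 (30.4, 22 and 29.8 CPM in H7, 12.7, 8.32 and 11.2 CPM in the parental line, adjusted p = 0.000617), and Slc7a5, the importer of large neutral amino acids, by 1.34 (355, 308 and 246 CPM in H7, 151, 79.4 and 130 CPM in the parental line, adjusted p = 0.00163). Both were higher in every H7 library. The synthesis enzymes Asns, Phgdh and Psat1 rose by 0.83, 0.83 and 0.55 (adjusted p 0.00919 to 0.0253), and the factors Atf5, Ddit3 and Atf3 by 0.68, 0.93 and 1.37 (adjusted p 0.00249 to 0.0336). Asns and Phgdh missed the threshold with only the H7 and parental libraries in the fit (adjusted p = 0.0563 and 0.0581), Psat1 did so there and without H7 passage 7 or 8 (0.0721 to 0.11), and Atf3 without 4 single libraries in turn (0.066 to 0.105). The secreted stress hormone Fgf21 had 0.955, 1.03 and 0.629 CPM in H7 and 0.0447, 0.118 and 0 CPM in the parental line, and Gdf15 was at 0.119, 0.184 and 0.236 CPM in H7 and 0 in the parental line, at least 4.23-fold higher. The members that were not called were Shmt2, Stc2, Slc38a2 (0.09, adjusted p = 0.84), Cebpb (-0.37, adjusted p = 0.388) and Vldlr (-0.51, adjusted p = 0.0984). The list's medians against the same parental libraries were 0.9 in F5 and 0.86 in G5, and against the mean of those clones 3 members were higher in H7 and 4 lower. The parental libraries are shared by these comparisons.

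**Figure D3:**
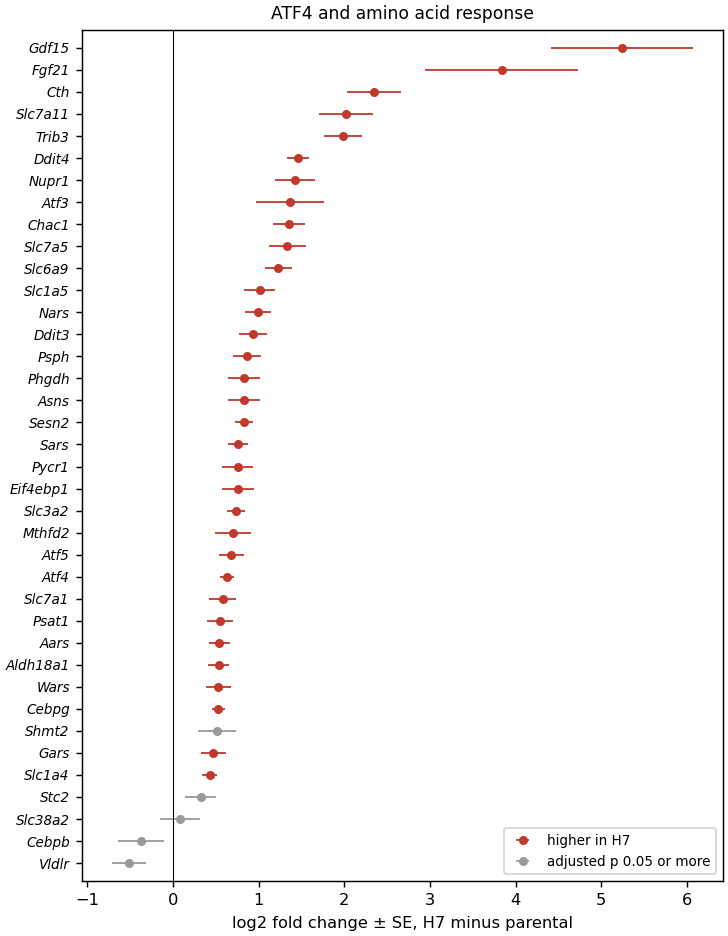
Log2 fold change of H7 over the parental line with its SE (horizontal axis) for each tested gene of the amino acid response list. Red points were higher in H7 and grey points had an adjusted p of 0.05 or more; 33 of 38 genes are red.

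Cholesterol genes moved the other way. The pathway turns acetyl-CoA into cholesterol through the mevalonate steps and a long series of sterol steps, under the SREBP-2 transcription factor. Of 28 members tested, 14 were lower in H7 and 1 higher, with a median of -0.37. Lss, which closes the sterol rings, had 38.2, 48.3 and 46.9 CPM in H7 and 108, 110 and 104 CPM in the parental line (-1.28 ± 0.09, adjusted p = 7.62e-06). It was the largest fall of the list, and Lss lies on chromosome 10. Mvk, the kinase of mevalonate, had 21.5, 23 and 23.1 CPM in H7 and 31.6, 27.3 and 31.1 CPM in the parental line (-0.41, adjusted p = 0.0042). Nsdhl, a later sterol enzyme, had 27.8, 35.3 and 40.6 CPM in H7 and 49.6, 47.7 and 55.5 CPM in the parental line (-0.56, adjusted p = 0.0119). The groups did not overlap for these 3 genes. Pmvk (-0.65), Mvd (-0.51), Acat2 (-0.49), Idi1 (-0.37) and Msmo1 (-0.37) of the pathway, and Insig1 (-0.48), which holds SREBP in the endoplasmic reticulum, were also lower, with adjusted p-values from 0.0107 to 0.0398. Hmgcs1 (-0.34, adjusted p = 0.0682) and Srebf2 (0.13, adjusted p = 0.488) did not pass. Sqle rose by 0.26 and lies on chromosome 15. Mylip, lower by 0.61, is a ubiquitin ligase and is driven by sterol-sensing LXR rather than by SREBP-2.

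Most of these falls are close to the threshold. The number of lower members was 5 without H7 passage 7, 10 without H7 passage 9, 9 without parental passage 6 and 9 without parental passage 8, and it was 4 with only the H7 and parental libraries in the fit. Lss, Mvk, Nsdhl and Pmvk passed without any 1 library. The adjusted p of Mvd was 0.065 to 0.0806 without any 1 library other than H7 passage 8. Those of Idi1 (0.0695 to 0.0714) and Msmo1 (0.0516 to 0.0683) missed the threshold without parental passage 6 or 8 or H7 passage 7. Acat2 missed it without parental passage 8 or H7 passage 7 (0.0513 and 0.0582), Mylip without H7 passage 7 (0.0587) and Insig1 without H7 passage 9 (0.0549). That of Sqle was 0.0743 to 0.127 without parental passage 6 or 8 or H7 passage 8 or 9. Outside chromosomes 6, 10, 15, 16 and 18, 13 of 24 members were lower, and with chromosome medians subtracted the list's median was -0.35. Against the mean of F5 and G5, 18 members were lower in H7 and 1 was higher, with a median of -0.40, beside 11.6% of all genes higher and 11.6% lower in that comparison (23.2% in all). The medians against the parental line were 0.03 in F5 and 0.06 in G5. The letters TCACNCCAC of a sterol regulatory element, on either strand, were in 1 of the 22 members with a promoter in the table and in none of the 12 lower ones, against 1.33% of tested genes.

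**Figure D4:**
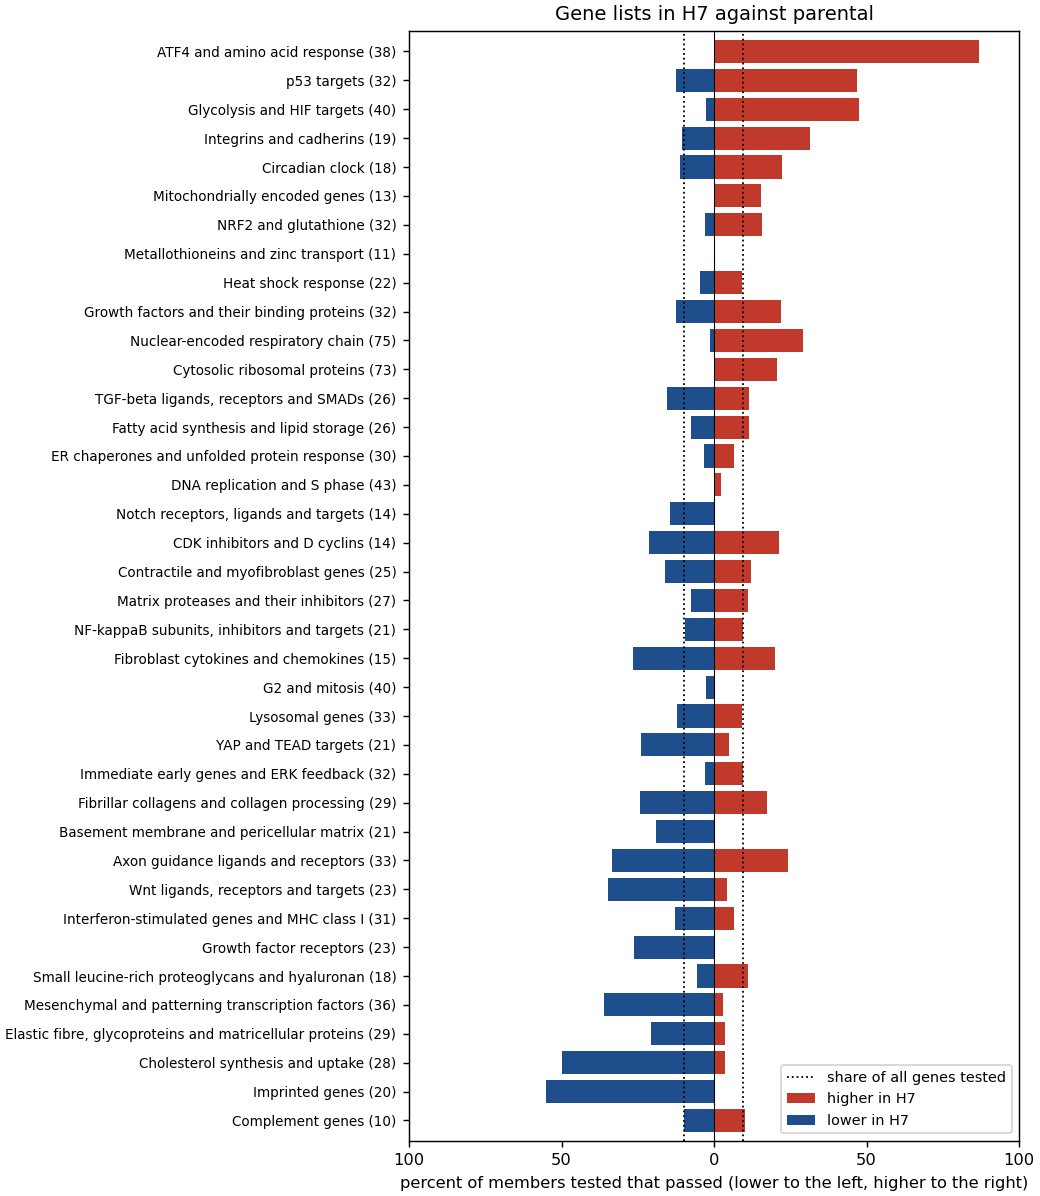
Share of the tested members of each gene list (number in brackets, lists of at least 10) that were lower in H7 (blue, to the left) or higher in H7 (red, to the right) than in the parental line. Dotted lines mark the shares of all genes tested, 9.92% lower and 9.64% higher; lists run from the highest median log2 fold change at the top, the amino acid response with 33 of 38 higher, to the lowest at the bottom.

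Genes that p53 switches on after DNA damage or other stress rose in part. Of 32 tested, 15 were higher and 4 lower, with a median of 0.57. Cdkn1a, which encodes the cell cycle inhibitor p21, had 156, 116 and 129 CPM in H7 and 56.7, 26 and 52 CPM in the parental line (1.57, adjusted p = 0.00138). Gadd45a, a growth-arrest gene, had 14.8, 13.5 and 10.8 CPM in H7 and 3.22, 1.93 and 3.03 CPM in the parental line (2.26, adjusted p = 0.000143). H7 was higher in every library for both. The kinase gene Plk2 rose by 0.92, Trp53inp1 by 1.58, the death receptor gene Eda2r by 1.83, Ccng1 by 0.98, Mdm2, the ligase that degrades p53, by 0.64, and Rrm2b by 0.96. Apaf1 of the apoptosome fell by 0.76, Btg1 by 0.47 and Tigar by 1.07, and Bax differed by 0.44 (adjusted p = 0.0807). Without H7 passage 9 the adjusted p of Tigar was 0.0503. Sesn2 and Ddit4 stand in both the p53 and the amino acid lists. Outside the 5 shifted chromosomes 10 of 21 members were higher and 0 lower. Against the mean of F5 and G5, 3 members were higher in H7 and 7 lower.

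Genes of the division cycle hardly moved, with 1 exception. Of 43 DNA replication genes 1 was higher, E2f2, by 0.52 (adjusted p = 0.0399), and of 40 genes of G2 and mitosis 1 was lower, Ccnb2. Ccnb2 encodes cyclin B2, a partner of CDK1 on chromosome 9. It had 0.159, 0.0736 and 0.393 CPM in H7 and 13.1, 10.1 and 13 CPM in the parental line, a log2 fold change of -5.83 ± 0.34 (adjusted p = 2.02e-06), and averaged 11.2 and 12.3 CPM in F5 and G5. Without H7 passage 9 the difference was -6.65. Ccnb1, the related cyclin, had 70.3, 70.6 and 71.2 CPM in H7 and 71.3, 55.5 and 84.4 CPM in the parental line (0.01, adjusted p = 0.982). Ccna2 differed by 0.01 as well (adjusted p = 0.97). Cyclin B2 was thus nearly lost while the levels of these cyclins overlapped between the groups. The genes Rnf111 and Myo1e beside Ccnb2 were at 51.4, 51.1 and 49.3 CPM in H7 and 45.9, 48.3 and 47.4 CPM in the parental line for Rnf111 (0.1, adjusted p = 0.33), and Myo1e was higher by 0.45. Among the brakes and D cyclins, Ccnd2 rose by 0.67, and Cdkn1b and Cdkn3 fell by 0.47 and 0.58. Left-out libraries changed several of these small calls: the adjusted p of E2f2 was 0.0509 to 0.145 without any 1 library other than H7 passage 8, that of Cdkn1b 0.0602 to 0.134 without any 1 other than parental passage 6, and that of Cdkn3 0.066 to 0.0923 without parental passage 7 or 8 or H7 passage 8 or 9.

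In glycolysis and among targets of the hypoxia factor HIF, 19 of 40 genes were higher in H7 and 1 lower, with a median of 0.41. Vegfa, the angiogenic growth factor, had 131, 137 and 121 CPM in H7 and 64.9, 51.5 and 66.3 CPM in the parental line (1.09, adjusted p = 0.000305). P4ha1, a collagen prolyl hydroxylase, had 253, 237 and 221 CPM in H7 and 164, 159 and 143 CPM in the parental line (0.61, adjusted p = 0.00108). The groups did not overlap for either. Ddit4, an inhibitor of mTORC1, rose by 1.46, Stc1, a secreted glycoprotein, by 2.16, the mitophagy gene Bnip3 by 0.45, the muscle phosphofructokinase gene Pfkm on chromosome 15 by 0.58, and the glucose transporter gene Slc2a1 by 0.54 (adjusted p = 0.0446, and 0.0524 to 0.145 without parental passage 7 or any 1 of the H7 libraries). The number of higher members was 12 without H7 passage 7 and 12 with only the H7 and parental libraries in the fit. The core letters ACGTG of a hypoxia response element, on either strand, were in 26 of 37 members with a promoter (70.3%) and in 29.3% of tested genes. Of the 15 higher members with a promoter, 12 held them. The list was made of glycolysis genes and HIF targets, so a high share was built in. A match of letters is not a site shown to be bound. Against the mean of F5 and G5, 6 members were higher in H7 and 11 lower.

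Of 75 nuclear genes of the respiratory chain, 22 were higher and 1 lower, with a median of 0.12. Cyc1, cytochrome c1, had 110, 108 and 104 CPM in H7 and 65, 48.4 and 71.2 CPM in the parental line (0.8, adjusted p = 0.000946), and Ndufb9 of complex I rose by 0.8 as well. Both lie on chromosome 15, and Atp5o and Ndufb4, up by 0.5 and 0.52, lie on chromosome 16. Outside the 5 shifted chromosomes 13 of 55 were higher. Of all 75, 13 were higher without H7 passage 7 or 9 and 12 without H7 passage 8. With only the H7 and parental libraries in the fit 9 were higher. Among 13 genes of mitochondrial DNA, mt-Nd3 (0.32) and mt-Co1 (0.29, adjusted p = 0.0402, and 0.0771 to 0.118 without parental passage 6 or 8 or H7 passage 8 or 9) were higher than in the parental line, while 8 were higher than the mean of F5 and G5, with a median of 0.58. Gm28661, a chromosome 1 gene with a mitochondria-like sequence, was counted at 2270, 2507 and 2980 CPM in H7 and 2022, 1459 and 2102 CPM in the parental line, and its reads may belong to mitochondrial DNA. Of 73 cytosolic ribosomal protein genes 15 were higher and 0 lower, with a median of 0.1. Rps14 (0.67) lies on chromosome 18, Rpl30 (0.57) and Rpl37 (0.58) on chromosome 15 and Rpl24 (0.46) on chromosome 16, and outside the 5 chromosomes 8 of 61 were higher. Without H7 passage 8 the count was 8 of 73, and with only the H7 and parental libraries in the fit 7. The medians of these 73 genes against the same parental libraries were 0.28 in F5 and 0.2 in G5. Against the mean of those clones 8 were higher in H7 and 17 lower.

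Of the lists of matrix genes, among which AEBP1 protein acts, some held calls in both directions. In the elastic fibre and basement membrane lists most or all called members were lower. The main collagen genes did not pass the test. Col1a1 had 6362, 6002 and 6739 CPM in H7 and 7201, 7787 and 6971 CPM in the parental line (-0.2, adjusted p = 0.364), Col1a2 differed by -0.26 (adjusted p = 0.0686) and Col3a1 by -0.15 (adjusted p = 0.758). Of 29 genes of fibrillar collagens and their processing, 5 were higher and 7 lower. Col11a1, a minor fibril collagen, had 34.3, 39.1 and 43.5 CPM in H7 and 14.4, 18.2 and 17 CPM in the parental line (1.23, adjusted p = 0.00015). Plod2, a lysyl hydroxylase, rose by 0.9. Crtap, a partner in collagen prolyl hydroxylation, had 42.6, 40 and 38.4 CPM in H7 and 75.3, 87.1 and 78.7 CPM in the parental line (-0.99, adjusted p = 1.05e-05). Bmp1, which trims procollagen, fell by 0.97. The H7 and parental values of these called genes did not overlap.

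In the list of elastic fibre, glycoprotein and matricellular genes the called members were lower, except for Ccn4 on chromosome 15 (0.71). Of 29 tested 6 fell, with a median of -0.26, and 3 without H7 passage 7. Eln, the elastin gene, had 0.119, 0.11 and 0.118 CPM in H7 and 7.24, 7.06 and 2.02 CPM in the parental line (-5.5, adjusted p = 0.000107). Ltbp4, which holds latent TGF-beta in the matrix, had 11.6, 8.25 and 9 CPM in H7 and 52.3, 60.8 and 48.9 CPM in the parental line (-2.49, adjusted p = 2.55e-06). Every H7 library was lower. Of 21 genes of the basement membrane and pericellular matrix 4 fell: Col6a1 (-0.86) and Col6a2 (-0.75), which lie together on chromosome 10, Lama2 (-2.21) and Nid2 (-2.69). Lama2 and Nid2 were highest in the parental library of passage 7, and without it they differed by -1.37 (adjusted p = 0.051) and -1.67 (adjusted p = 0.0265). Without H7 passage 7 their adjusted p-values were 0.0733 and 0.0519, and without H7 passage 9 that of Lama2 was 0.0602. Among 18 genes of small proteoglycans and hyaluronan 2 were higher and 1 lower, while 9 were higher than the mean of F5 and G5. The levels of Dcn, decorin, were 72.4, 92.5 and 98.6 CPM in H7 and 112, 348 and 101 CPM in the parental line (-1.09, adjusted p = 0.126, and -0.28 with an adjusted p of 0.59 without parental passage 7), and its means in F5 and G5 were 15.5 and 10.5 CPM. Lum, lumican, averaged 44.4 CPM in H7, 3.92 CPM in F5 and 3.98 CPM in G5 (H7 minus the mean of F5 and G5, 3.49, adjusted p = 3.52e-05).

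Among 27 matrix proteases and inhibitors, Mmp16 (1.44) and Timp3 (0.62) were higher and Adamts9 (-2.9) and Serpine2 lower, and Mmp2 was the other higher gene. Without the parental library of passage 7 Adamts9 differed by -1.29 (adjusted p = 0.0374), and without H7 passage 7 or 9 its adjusted p was 0.0691 or 0.0676. That of Timp3 was 0.0695 to 0.0983 without parental passage 6 or 8 or H7 passage 7. Contractile genes gave 3 higher and 4 lower of 25, beside 9.64% higher and 9.92% lower of all genes tested. Acta2, smooth muscle actin and the usual myofibroblast marker, had 447, 573 and 589 CPM in H7 and 331, 281 and 365 CPM in the parental line (0.72, adjusted p = 0.00124), and Actg2 rose by 2, while Zyx, zyxin, fell by 0.56 and Myh10, a nonmuscle myosin, by 0.52. In the TGF-beta list 3 of 26 were higher and 4 lower. Smad3, a receptor-driven transcription factor, fell by 0.55, the inhibitory Smad6 by 1.04 and Fstl3, an activin antagonist, by 1.4. YAP and TEAD targets gave 1 higher and 5 lower of 21, among them Dlc1 (-0.84) and Arhgef17 (-0.57), and 3 lower without H7 passage 7 or 9.

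Surface adhesion genes changed as well. Of 19 integrins and cadherins tested 6 were higher and 2 lower (1 lower without parental passage 6 or 8 or H7 passage 8 or 9), with a median of 0.39. The lower count is near the 9.92% of all genes tested. Itgb4 had 9.27, 10.1 and 10.9 CPM in H7 and 1.65, 1.62 and 1.49 CPM in the parental line (2.66, adjusted p = 3.5e-05). Its partner Itga6 rose by 0.96 (adjusted p = 0.0378), with adjusted p-values of 0.0612 to 0.138 without any 1 of the H7 libraries and 0.063 without parental passage 8. Itgb7, on chromosome 15, rose by 1.89, and Itgb8 and Itgb3 by 1.05 and 0.95, while Itga9, a tenascin receptor, fell by 1.92. Cdh1, E-cadherin, was detected at 0.875, 0.515 and 0.826 CPM in H7 and 0.0447, 0 and 0 CPM in the parental line, with the epithelial marker Epcam at 0.

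Axon guidance molecules, which steer neurites and also migrating mesenchymal cells, were called in both directions: 8 of 33 were higher and 11 lower. Beside Slit2, the ligand gene Sema3c had 7.72, 4.27 and 3.97 CPM in H7 and 1.16, 1.42 and 1.05 CPM in the parental line (2.13, adjusted p = 0.00106). Ntn1, netrin-1, had 0.0796, 0.221 and 0.197 CPM in H7 and 7.38, 12.7 and 5.01 CPM in the parental line (-5.61, adjusted p = 0.000131). The ephrin gene Efna5 had 50.6, 56.6 and 53.5 CPM in H7 and 90.3, 110 and 100 CPM in the parental line (-0.9, adjusted p = 7.87e-05). The H7 libraries were wholly below the parental ones for these last genes. Sema3f fell by 1.14, Sema4c by 0.7 and Ntn4 by 3.98, and the receptor gene Epha7 had 0 counts in H7, at least 11.8-fold lower. The higher members numbered 3 without H7 passage 7 or parental passage 8, 4 without H7 passage 8 or parental passage 6 and 5 without H7 passage 9, and the lower members 10 to 12 without any 1 library.

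Growth factor receptors fell where they were called, 6 of 23, with 0 higher. Egfr had 1.07, 3.79 and 3.03 CPM in H7 and 9.97, 57.7 and 11.8 CPM in the parental line (-3.33, adjusted p = 0.00537), and -2.04 (adjusted p = 0.00466) without the parental library of passage 7. Erbb2 fell by 0.65, Fgfr2 by 0.59 and Lifr by 0.52, the last although it lies on chromosome 15. Of 32 growth factors and binding proteins 7 were higher and 4 lower, and 2 lower without H7 passage 7. Igfbp6, which binds IGF-2, had 342, 303 and 320 CPM in H7 and 134, 137 and 187 CPM in the parental line (1.07, adjusted p = 0.000127). Gdnf, a neurotrophic factor, had 17.4, 9.35 and 9.99 CPM in H7 and 3.44, 2.21 and 2.46 CPM in the parental line (2.18, adjusted p = 0.000475). Angpt1, the ligand of the TIE2 receptor, had 2.94, 4.27 and 3.62 CPM in H7 and 0.0894, 0.118 and 0 CPM in the parental line (5.58, adjusted p = 7.74e-05, and 6.2 without parental passage 7). These 3 genes lie on chromosome 15 and were higher in every H7 library.

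Wnt genes gave 1 higher and 8 lower of 23, and 3 higher without parental passage 7. The secreted Wnt antagonist gene Sfrp1 had 1.27, 1.36 and 0.865 CPM in H7 and 14.9, 50.1 and 10.3 CPM in the parental line (-4.42, adjusted p = 0.000535), and Sfrp2 had 0.517, 2.02 and 1.42 CPM in H7 and 11, 65.5 and 9.09 CPM in the parental line (-4.42, adjusted p = 0.00249). Both were highest in the parental library of passage 7, and without it the differences were -3.43 and -2.92. Rnf43, which removes Wnt receptors, fell by 6.15 and Tcf7l2, a Wnt-driven factor, by 0.4. In the Notch list 2 of 14 were lower and 0 higher. The receptor gene Notch1 had 15, 17.2 and 17.5 CPM in H7 and 45.5, 68 and 56.6 CPM in the parental line (-1.78, adjusted p = 1.23e-05), and Dlk1, a noncanonical ligand that holds back fat-cell formation, had 1597, 1616 and 1685 CPM in H7 and 2365, 4202 and 2550 CPM in the parental line (-0.9, adjusted p = 0.00657).

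Among 15 cytokines and chemokines 3 were higher and 4 lower, and 1 lower without H7 passage 7. Ccl2, which attracts monocytes, had 9.79, 8.36 and 12.5 CPM in H7 and 3.13, 3.9 and 5.36 CPM in the parental line (1.3, adjusted p = 0.00554), and its neighbour Ccl7 rose by 1.64. Lif rose by 1.31. Cxcl12, the stromal ligand of CXCR4, had 1.91, 3.31 and 2.87 CPM in H7 and 23.6, 68.2 and 17.7 CPM in the parental line (-3.76, adjusted p = 0.00032), and -2.93 (adjusted p = 1.28e-05) without parental passage 7. Cx3cl1 fell by 0.98, and the interleukin receptor genes Il1r1 by 0.73 and Il1rl1 by 0.63. These last calls and that of Lif were close to the threshold: without H7 passage 7 the adjusted p was 0.0824 for Cx3cl1, 0.0696 for Il1r1, 0.152 for Il1rl1 and 0.0722 for Lif, and without parental passage 7 it was 0.0578 for Cx3cl1 and 0.0999 for Il1rl1. Il1rl1 also missed it without parental passage 8 or H7 passage 9 (0.117 and 0.0827), and Lif without parental passage 6 or H7 passage 8 or 9 (0.0593, 0.0632 and 0.0514). In the NF-kappaB list 2 of 21 were higher and 2 lower, in the interferon and MHC list 2 of 31 higher and 4 lower (2 lower without parental passage 7 and 1 without H7 passage 7), and in the complement list 1 of 10 each way. Nlrc5, the activator of MHC class I genes, had 0, 0 and 0.0393 CPM in H7 and 0.268, 2.96 and 1.54 CPM in the parental line, and B2m fell by 0.39 (adjusted p = 0.0131, and 0.0586 without H7 passage 7) while H2-D1 rose by 0.33.

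Of 36 mesenchymal and patterning transcription factors tested, 13 were lower in H7 and 1, Snai2 (0.77), was higher, with a median of -0.26. With only the H7 and parental libraries in the fit 7 were lower. Nr2f1, an orphan nuclear receptor, had 27, 35.1 and 33.5 CPM in H7 and 97.1, 89.3 and 105 CPM in the parental line (-1.61, adjusted p = 4.93e-06). Gata2 had 22.3, 21.1 and 21.8 CPM in H7 and 41.8, 43.5 and 40.2 CPM in the parental line (-0.94, adjusted p = 2.87e-05). Both were lower in every H7 library. Prrx1, which marks limb and fibroblast mesenchyme, had 707, 886 and 869 CPM in H7 and 973, 1253 and 1073 CPM in the parental line (-0.42, adjusted p = 0.0367), and missed the threshold without any single library other than parental passage 6 (0.0525 to 0.143). Of the Nfia family, Nfix fell by 0.37 and Nfib differed by -0.12 (adjusted p = 0.48). Homeobox genes of the Hox clusters were picked after their values were seen: beside Hoxb9, Hoxb8 rose by 4.6 (5.22 without parental passage 8), Hoxc8 by 1.78 and Hoxc9 by 1.91, and Hoxa9 had 0 counts in H7, at least 7.72-fold lower.

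Imprinted genes, which are read from 1 parental allele, were lower in 11 of 20 and higher in 0, with a median of -0.68. Igf2, a fetal growth factor, had 7.08, 29 and 16.4 CPM in H7 and 126, 795 and 100 CPM in the parental line (-4.28, adjusted p = 0.00959). H19, the noncoding RNA beside it, had 1.19, 1.95 and 1.02 CPM in H7 and 25.5, 94.8 and 9.44 CPM in the parental line (-4.95, adjusted p = 0.00407). Both peaked in the parental library of passage 7, and without it they differed by -2.69 (adjusted p = 0.0164) and -3.64 (adjusted p = 0.00692). Peg3 had 17.3, 23 and 23.4 CPM in H7 and 56.9, 120 and 75.8 CPM in the parental line (-1.99, adjusted p = 0.000287), and Usp29 beside it fell by 3.22. Snrpn had 0 in each H7 library and 2.59, 2.25 and 2.37 CPM in the parental libraries, at least 62.1-fold lower, and Mest was at least 47.1-fold lower. Mest averaged 0 CPM in F5 and G5 too, while Snrpn averaged 4.15 and 5.39 CPM there. Snrpn shares its transcript with Snurf, so reads may be split between them.

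In the other lists the share of members called ran from 0% (metallothionein and zinc transport) to 33.3% (circadian genes). It was 19.6% over all genes tested. Genes of the unfolded protein response gave 2 higher and 1 lower of 30. The chaperone gene Hsp90b1 had 428, 485 and 525 CPM in H7 and 837, 743 and 953 CPM in the parental line (-0.82, adjusted p = 0.000337) and lies on chromosome 10, whereas Herpud1, of protein disposal, rose by 0.62. Heat shock genes gave 2 higher and 1 lower of 22, fatty acid and lipid droplet genes 3 and 2 of 26, NRF2 and glutathione genes 5 and 1 of 32, lysosomal genes 3 and 4 of 33 (2 lower without H7 passage 7 or 9), and immediate early genes 3 and 1 of 32. Of 11 metallothionein and zinc transport genes edgeR called 0 and DESeq2 1, and in edgeR 2 had an unadjusted p under 0.05. Circadian genes gave 4 higher and 2 lower of 18, with 2 higher without H7 passage 7 or 8 or parental passage 8, among them Tef on chromosome 15 (0.83) and Cry1 on chromosome 10 (-0.35, with an adjusted p of 0.0629 without parental passage 8 and 0.0863 without H7 passage 7).

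The medians of several chromosomes were displaced in H7. The median log2 fold change was 0.45 over the 534 genes tested on chromosome 15, where 282 were higher and 12 lower (52.8% and 2.25%). It was 0.25 on chromosome 18 (130 higher and 30 lower of 395) and 0.22 on chromosome 16 (111 and 13 of 425). It was -0.22 on chromosome 6 (34 higher and 177 lower of 782) and -0.21 on chromosome 10 (56 and 189 of 647), and smaller on chromosomes 1 (-0.14) and 2 (-0.13). The H7 libraries were alike: over chromosome 15 their medians from the parental mean were 0.414, 0.435 and 0.426, against -0.011, -0.004 and 0.028 for the parental libraries. On chromosomes 15, 16, 18, 6 and 10 the medians in F5 and G5, against the same parental libraries, lay between -0.09 and 0.09. On chromosome 1 they were -0.08 in F5 and -0.14 in G5, so a fall there was not particular to H7. On chromosome 2 they were -0.06 and -0.04, smaller falls than the -0.13 of H7. Along chromosome 15 the median was 0.40 to 0.80 in 10 of the 11 windows of 10 Mb and 0.01 in the other, which held 10 genes. Along chromosome 10 it ran from -0.57 to 0.15, and the windows that start at 40, 50, 60 and 110 Mb had medians of 0.07, 0.15, 0.08 and 0.11. On chromosome 18 the window from 30 Mb, with 150 genes, had a median of 0.08 and held 33 higher and 24 lower genes. On chromosome Y, with 7 genes tested, the median was -5.94 in H7 and 4 genes were lower. It was -5.36 in F5 and -5.56 in G5, so this fall was shared by the clones. Copy number was not measured here. The other 11921 genes tested, outside chromosomes 6, 10, 15, 16 and 18 but with chromosomes 1 and 2, held 805 higher (6.75%) and 1038 lower (8.71%).

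**Figure D5:**
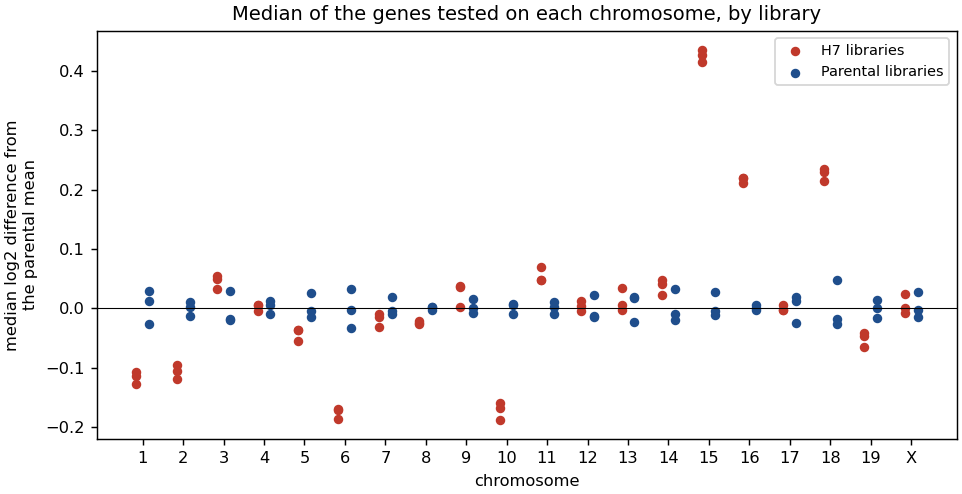
Median over the genes tested on each autosome and on X of the log2 difference from the mean of the parental libraries (vertical axis), with 1 point per library, H7 in red on the left and the parental line in blue on the right. The H7 points stand at 0.414 to 0.435 on chromosome 15, near 0.2 on 16 and 18 and below 0 on 1, 2, 6 and 10, while the parental points run from -0.033 to 0.047.

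Against the mean of F5 and G5, 1705 genes were higher in H7 and 1713 lower. With limma on log2(TPM + 1) these counts were 1139 and 1849. The H7 libraries enter this comparison and the one with the parental line. Among genes called in the same direction in both and at 10 CPM or more in H7 or the parental line, the largest rise was that of Sod3, with 29.6, 70.6 and 70.7 CPM in H7 and means of 0.713 and 1.23 CPM in F5 and G5 (5.92, adjusted p = 1.06e-05), followed by Ercc6l2 (4.46), Hoxc8 (4.18), Wdfy4 (4.07), Stc1 (3.98) and Hoxb9 (3.68). For Sod3 the order of the groups was H7, the parental line, then the other clones. By the same rule the falls named were those of Btbd11, Galnt17, Ralgps2, Gpc6, Serpine2 and Nfia. Nfia averaged 0.656 CPM in H7, 73.9 CPM in F5, 78.2 CPM in G5 and 40.1 CPM in the parental line. Some genes stood in H7 on 1 side of the parental line and in F5 and G5 on the other. Col11a1 averaged 39 CPM in H7, 3.97 CPM in F5, 2.93 CPM in G5 and 16.6 CPM in the parental line. Hoxc9 averaged 9.96 CPM in H7, 0.699 CPM in F5, 0.227 CPM in G5 and 2.65 CPM in the parental line. For both, H7 was highest and the other clones lowest. For Aebp1 the difference of H7 from the mean of F5 and G5 was -0.1 (adjusted p = 0.569).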

How the data were processed

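Total RNA was depleted of ribosomal RNA and sequenced with a stranded paired-end protocol, per the labels' protocols. The authors deposited gene-level estimated counts and TPM values for all 12 libraries. The submitters' processing notes name build GRCm38, and for the aligner, the counter and its strand setting: not given in the sources used here. Of the deposited estimated counts above 0.5, 86.9% lay within 0.01 of a whole number; all were rounded before testing. Symbols came from GENCODE M21 and matched 48349 of 48795 genes. Genes were filtered with filterByExpr, scaled by TMM and tested with edgeR 4.0.16 (R 4.3.3), fitting the group over all 12 libraries with 8 residual degrees of freedom; a Benjamini-Hochberg adjusted p under 0.05 over all 14704 genes was a call. Totals of 22088714 to 31329755 counts per library limit the precision of low genes, and intervals and limits for a count of 0 cover counting error only. TPM values deposited by the authors entered limma 3.58.1 as log2(TPM + 1) and log2(TPM + 0.1) in alternatives. DESeq2 1.42.0, other scalings, no filter, blocks and left-out libraries were further alternatives. Clone libraries of the same passage number deviated together from their group means (H7 with F5 or G5, r 0.153 to 0.344), a pairing seen in the data. H7 and parental libraries of the same passage number did not (-0.42 and -0.187). Those of the same place in the order of passages correlated at 0.426, 0.38 and 0.045. In the clones passage number and order are the same, and the main test had no block for either. Two-sided tests were used throughout. The SE of a log2 fold change is its size divided by the square root of the F statistic of edgeR's quasi-likelihood test. On simulated data for H7 against the parental line over 14531 genes, the test found 20 of 67 genes with a 1.5-fold change, 57 of 67 with a 2-fold change and 64 of 66 with a 4-fold change, and called 11 unchanged genes. The simulation gave every gene the same spread between libraries (a coefficient of variation of 15.5%) and drew the libraries independently. Spread that differs by gene and deviations shared between libraries, both present in the real data, were left out, so these numbers do not measure errors there.

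The members and gene lists were chosen with earlier results of these data known. The genes named were Aebp1, the 12 largest rises and falls with groups apart and at least 10 CPM in the higher group, the 8 largest of each at 100 CPM or more, the 6 largest of each against F5 and G5 (with at least 10 CPM in H7 or the parental line), the 4 most abundant genes at 0 in either group, up to 4 genes per list by adjusted p and the 4 most abundant called genes each way; others were added after their values were seen. Some genes of the lists are counted but not reported here by name. Motif letters were searched on both strands of RefSeq promoters from GRCm38.p6.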

Additional observations from a re-analysis of the deposited data

Results flagged for a closer look

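These genes differed between H7 and the other knockout clones in a test of that difference, H7 minus the mean of F5 and G5 on the log2 scale in edgeR's quasi-likelihood test. Higher in H7 were Sod3 (5.92), Hoxc9 (4.59), Ercc6l2 (4.46), Hoxc8 (4.18), Wdfy4 (4.07), Stc1 (3.98), Hoxb9 (3.68), Col11a1 (3.51), Ccl7 (3.07) and Ccl2 (2.62). Each of these was higher in all 3 H7 libraries than in all 6 libraries of F5 and G5. Lower in H7 were Nfia (-6.85) and Gnas (-0.52). Galnt17 (-11.84), Btbd11 (-12.03), Ralgps2 (-10.94), Snrpn (-9.92), Epha7 (-8.91), Gpc6 (-8.29) and Serpine2 (-8.05) were at or near 0 counts in H7, so that their fitted sizes depend on the prior count. Serpine2 averaged 3.61 CPM in F5 and 0.467 CPM in G5, less than in the parental line. The adjusted p-values of all these differences ran from 3.1e-08 to 0.00463.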

How the results depend on the processing

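Of 217 named genes called between H7 and the parental line, 148 were called under each of the 15 alternatives that gave a value, and no call changed its direction. With only the H7 and parental libraries in the fit, and 14167 genes tested, 840 genes were higher and 721 lower, and Hoxa9, Ntn4, Nlrc5, Gdf15 and Epha7 had no value. Leaving out 1 library gave 916 to 1436 higher and 907 to 1473 lower genes, and against F5 and G5 1140 to 1631 and 1120 to 1513. Passage numbers did not pair the H7 and parental libraries (correlation of deviations -0.42 at passage 7 and -0.187 at passage 8). With the passage number as a replicate block 1202 genes were higher and 1249 lower, and 1662 and 1654 against F5 and G5, where it changed no call of the genes named for that comparison. A block for the order of passages gave 2350 and 2458, and 2674 and 2589 against F5 and G5; parental and H7 libraries of the same place in that order correlated at 0.426, 0.38 and 0.045, and the cause was not tested. With limma on log2(TPM + 1) or log2(TPM + 0.1), 38.1% or 37.5% of the calls against F5 and G5 were higher, beside 49.9%. Without a filter on low counts the chromosome medians were -0.10 (1), -0.09 (2), -0.17 (6), -0.13 (10) and 0.23 (16), with 23929 genes tested. Leaving out 1 library gave -0.22 to -0.18 for chromosome 10 and 0.21 to 0.24 for chromosome 16.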
